A study of Erysimum cheiri and Matthiola incana and Raphanus sativus with 44 samples.

Results

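The plastid genome loci were the 133 entries whose identifier begins with ATCG, the Arabidopsis thaliana prefix for genes of the chloroplast chromosome, among 34133 loci per table (34131 in the Brassica table). They were chosen by this prefix alone and not by any measured value. The plastid genome is a small circular chromosome kept in many copies per cell. It holds genes for subunits of both photosystems, the cytochrome b6f complex, the ATP synthase, the NDH complex, the large subunit of Rubisco, a bacterial-type RNA polymerase, ribosomal proteins, ribosomal RNAs and transfer RNAs, and part of it is present as an inverted repeat. In plastids a poly(A) tail marks an RNA for decay, unlike in the nucleus and cytosol, so libraries selected with oligo(dT) do not sample plastid RNA in the way they sample nuclear mRNA. The files do not pair the identifiers with gene names, so the loci are given by identifier, without names or roles.

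The study profiled petals of partly open flowers from 10 species of Brassicaceae grown in a greenhouse, in 22 forms that mostly differ in flower colour, with 2 libraries per form. Values are FPKM, fragments scaled by locus length and library depth, computed against Arabidopsis genes in every species. Reads of a diverged plastid gene may fail to align, and levels were therefore not tested between species. The question put to these loci is how much of each petal library they take, which of them take it, and whether this differs between forms of a species by more than between libraries of 1 form.

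Forms are called by the letters of the sample titles. Single forms were Aubrieta PI (labelled pink), Brassica Y (yellow) and Eruca Y (labelled brownness). Erysimum had 4 forms, B (labelled orange), O (pink), P and Y (both labelled yellow). Iberis had P (pink) and PI (violet), Lobularia P (violet) and W (white), and Malcolmia LP (violet) and P (white-violet). Matthiola had 4 forms, DP (lavender), LP (modena), RB (pink) and W (white). Orychophragmus had P (violet) and W (white-violet), and Raphanus had DP (violet), LP (white-violet) and W (violet). Several colour labels go against the letters, and the organism labels of Eruca Y and Erysimum Y are exchanged, so no result below is tied to a colour. Form P of Erysimum is headed PI in the table, and the match of both is an inference. Both Aubrieta columns hold identical values and were counted as 1 library, which leaves 43 libraries. The W columns of Matthiola share 1 header name, so they are given as libraries a and b with no replicate number.

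Summed FPKM per library ran from 207697 to 2816588, with 4910 to 14198 loci above 0. All 5 petal identity genes on the list (PI, AP3, AP1, SEP1 and SEP3, MADS-box factors) were above 0 in every library except that of Aubrieta, which had 4. AG and SHP1, listed as carpel markers, together reached 45.3 FPKM in Raphanus and 9.51 FPKM or less in the other species. The exception was 1 Orychophragmus P library slightly above that. The pollen genes VGD1 and PPME1 together reached 4595 FPKM in Raphanus, 713 in Orychophragmus and 210 in Erysimum, and 92.5 FPKM at most in the other species.

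Plastid loci took between 0.0358% and 69.2% of the FPKM of a library, with a median of 1.96% over 43 libraries. Malcolmia had the lowest shares, with 0.0777% and 0.0714% in LP and 0.136% and 0.0358% in P. The highest were in Raphanus W library 1, at 69.2%, and Lobularia P library 2, at 47.6%. A single locus held 69.7% of the plastid FPKM in the first of these and 89.0% in the second. In these bulk samples, more plastid-rich cells, more plastid RNA per cell and the values of single loci cannot be told apart as sources.

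The high shares of those libraries were not shared by the other library of the same form. Raphanus W library 2 had 4.08%, and Lobularia P library 1 had 1.77%. Raphanus LP had 25.1% and 20.1% and Raphanus DP 1.69% and 0.872%, so that LP lay above DP in both libraries while W spanned nearly the whole range. Lobularia W had 8.67% and 1.90%, between the values of the P libraries.

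In Erysimum the libraries of P and O lay far apart, by 43.3-fold and 4.22-fold, and those of Y and B closer, by 1.40-fold and 1.42-fold. Form P had 13.5% and 0.312%, form O 13.0% and 3.08%, form Y 6.28% and 4.47%, and form B 12.0% and 8.43%. An exact one-sided permutation test of the between-form variance of log2 share, over all 105 ways to pair its 8 libraries, gave p = 0.876. The smallest p this design allows is 0.00952.

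Matthiola had lower shares, 0.376% and 2.65% in W libraries a and b, 0.533% and 0.502% in LP, 0.981% and 1.96% in RB and 1.18% and 0.866% in DP. The same exact permutation test gave p = 0.610, so in neither species did the forms differ beyond the spread between libraries. In species with 2 or 3 forms of 2 libraries a pair of forms cannot reach an exact p under 0.05, and the shares there are a description.

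The remaining species lay between these. Iberis had 6.79% and 5.02% in P and 9.85% and 6.51% in PI, with overlapping forms. Orychophragmus had 0.821% and 1.59% in W and 3.87% and 0.750% in P, also overlapping. Eruca had 8.61% and 7.54%, Brassica 1.73% and 0.567%, and the Aubrieta library 1.45%.

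**Figure D1:**
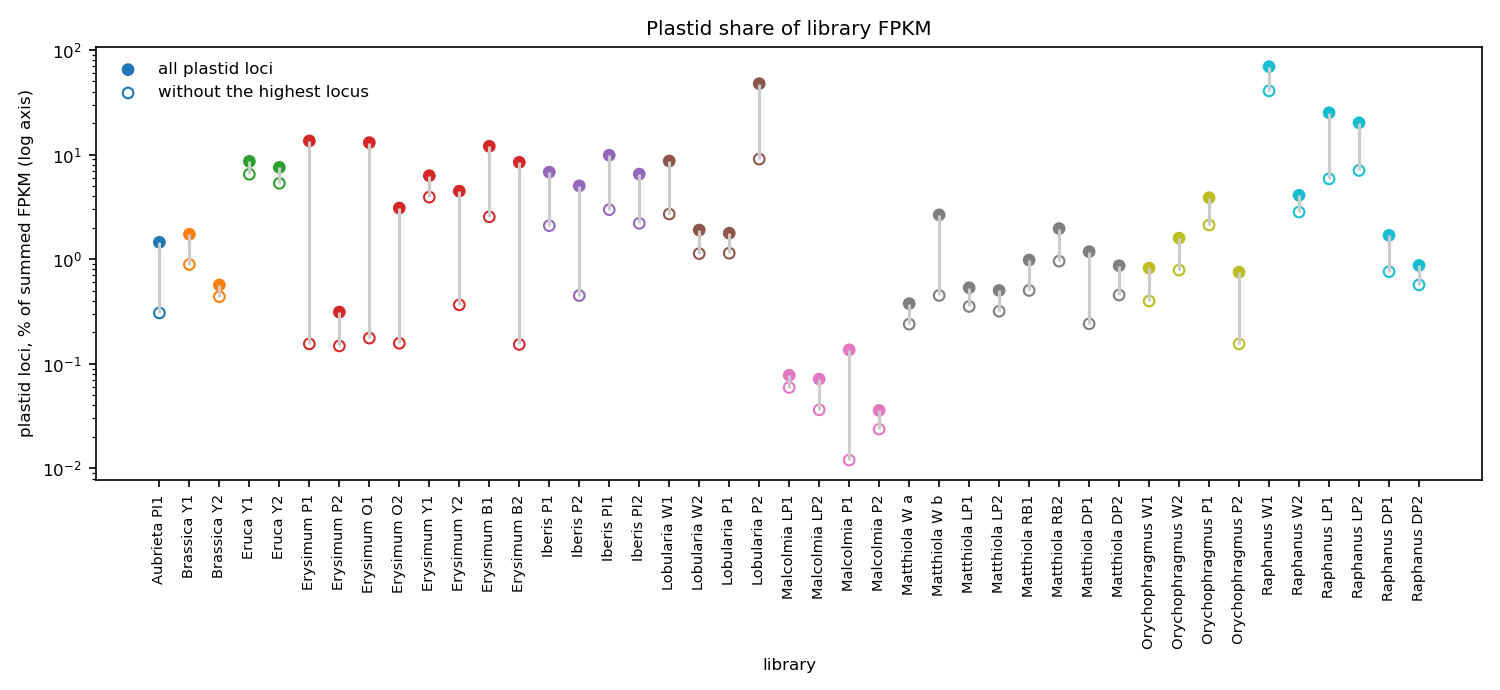
Share of summed FPKM held by plastid loci in each of 43 libraries, in percent on a log axis. Filled points are all plastid loci and open points leave out the highest plastid locus of that library, joined by a line. Raphanus W1 stands at 69.2% and Malcolmia P2 at 0.0358%, and the open points of most Erysimum libraries lie far below the filled ones.

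A few loci made up most of each share. The highest plastid locus held 22.9% to 99.0% of the plastid FPKM of its library, with a median of 52.6%, and more than 50% in 25 of 43 libraries. The 5 highest together held 64.6% to 99.7%. Between 23 and 65 plastid loci were above 0 per library. Of the 133 loci, 50 were listed at 0 in every library, 7 were above 0 in every library and 76 were above 0 in some, 6 of them in a single library.

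The largest values stood in single libraries. ATCG00110 was listed at 1292740 FPKM in Raphanus W library 1, which is 48.2% of that library's FPKM, and at 0 in the other 42 counted libraries. ATCG00690 was listed at 345653 FPKM in the same library, at 62169 in Matthiola W library b, at 18610 in Erysimum B library 1 and at 3499 in Orychophragmus P library 1, and at 0 elsewhere. ATCG00290 was listed at 519110 FPKM in Lobularia P library 2 and 10391 FPKM in Orychophragmus P library 1 and at 0 elsewhere. Each of these 3 loci was thus high in 1 library of a form and listed at 0 in the other.

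Other leading loci kept to 1 species or form. ATCG00220 was above 0 in 7 of 8 Erysimum libraries and in no other species. Its FPKM was 92953 and 0 in P, 93171 and 28118 in O, 18476 and 29646 in Y, and 90859 and 74576 in B. It was the highest plastid locus in all 7 libraries and held 99.0% of the plastid FPKM in P library 1. Form P library 2, where it was listed at 0, had the lowest plastid share of the species.

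ATCG00630 was the most widespread leading locus, above 0 in 31 libraries of 9 species and highest in 11 of them. In Iberis it was listed at 87084 and 31774 FPKM in P and 24322 and 32513 FPKM in PI. Iberis PI library 1 was led instead by ATCG00210, at 103578 FPKM there and listed at 0 in all other libraries counted. ATCG00600 and ATCG00065 had the same value, 3684 FPKM, in Erysimum Y library 1.

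The 7 loci above 0 in every library were much lower. ATCG00020 was the highest of them, with a median of 326 FPKM and a range from 19.1 in Malcolmia P library 1 to 9720 in Lobularia P library 2. ATCG00490 had a median of 63.3 FPKM and ranged from 3.42 in Erysimum P library 1 to 1355 in Lobularia P library 2. ATCG00280, ATCG00340, ATCG00350, ATCG00480 and ATCG00680 had medians of 54.7, 24.5, 34.9, 29.9 and 42.1 FPKM, and Lobularia P library 2 was the highest library for each.

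**Figure D2:**
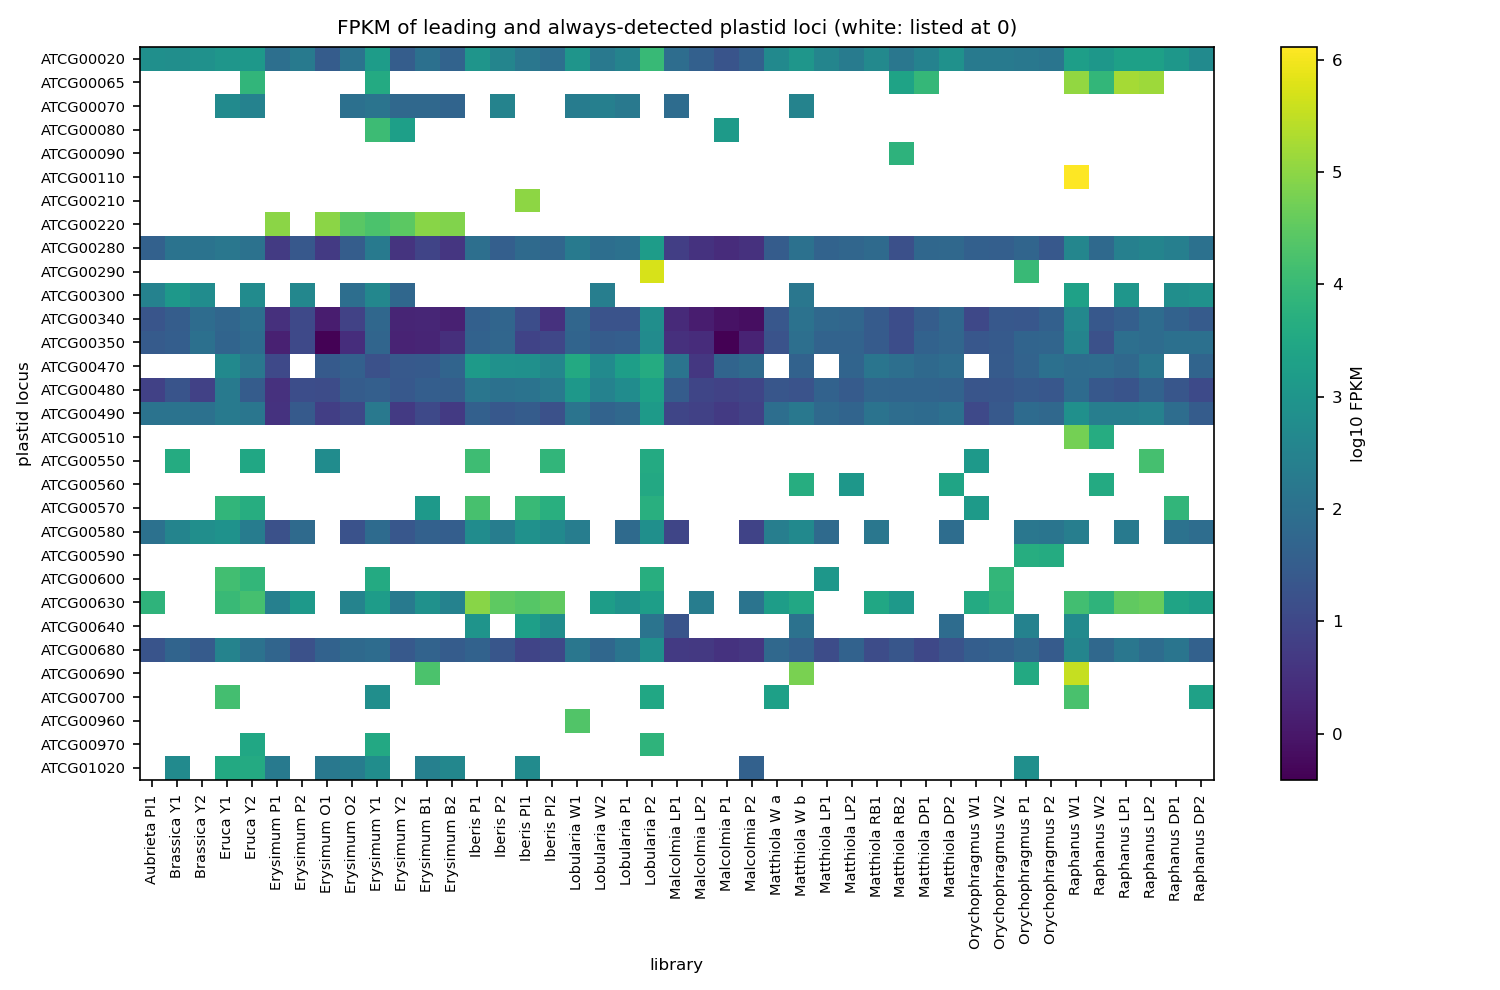
FPKM on a log10 colour scale of the plastid loci that lead a species or a library and of the 7 loci above 0 everywhere, in rows, over 43 libraries in columns, with white for values listed at 0. The 7 always-detected loci, such as ATCG00020 and ATCG00490, form unbroken rows, whereas ATCG00110 and ATCG00210 appear in 1 library each and ATCG00220 in Erysimum only.

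The median difference between replicate libraries was larger at plastid loci than over the table, as a description without a test. For 575 pairs of plastid values above 0 in both libraries of a form, the median absolute log2 ratio was 0.946, against 0.582 for 144765 pairs over all loci. Of the plastid loci above 0 in a form, 46.3% (median over 21 forms) were above 0 in 1 library only, against 39.6% over all loci, and the share was larger for plastid loci in 13 of 21 forms. The share of library FPKM differed between the libraries of a form by 1.06-fold to 43.3-fold with a median of 1.94-fold, and by over 2-fold in 9 of 21 forms.

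The locus behind the largest gap was usually the leading one. ATCG00220 accounted for 13.3 percentage points between the Erysimum P libraries, ATCG00290 for 42.4 between the Lobularia P libraries and ATCG00110 for 48.2 between the Raphanus W libraries. Forms with close libraries were Matthiola LP (1.06-fold), Malcolmia LP (1.09-fold) and Eruca Y (1.14-fold).

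Low FPKM values in the 38 libraries of the 7 species with several forms fell on steps, as values do when each is a whole number of reads times a constant for the locus and the library. Per library, 94.6% to 100% of low values at loci with a step lay within 0.1 of a whole number. These loci were selected, and their constants fitted, by this same measure, so the percentage is no test that values are reads. The 20% for values without steps holds only without such selection and fitting. Of 133 plastid loci, 27 had a step, 39 had none and 67 had too few values to assess. The share with a step among those assessed was 40.9% for plastid loci, 47.6% for mitochondrial loci and 89.3% for nuclear loci. Aubrieta, Brassica and Eruca were not in the step fit, and their values were only scaled to the constants of the other species. This left 1557 and 212 low values in Brassica libraries 1 and 2, of which 20.3% and 17.0% lay within 0.1 of a whole number. Aubrieta had 52 low values, with 13.5%. Eruca had 0 low values in library 1 and 18 in library 2. The low values found thus did not fall on the constants of the other species. Whether values in these species have steps on constants of their own is not known.

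Of the 14 plastid loci that reached 10000 FPKM in a library, ATCG00220, ATCG00550, ATCG00570 and ATCG00630 were assessed and had no step. The others had too few values to assess. In no library was the leading locus among the loci with a step. The highest value of a locus with a step was 1932 FPKM, for ATCG00480 in Lobularia P library 2. Between 0.161% and 24.5% of a library's plastid FPKM came from loci with a step. One step at these loci was worth 0.113 to 1.82 FPKM in Malcolmia LP library 1 and 3.14 to 50.6 FPKM in Raphanus W library 1, so a low value in Raphanus can rest on a single read. A step may be more than 1 read, and the reads behind the leading loci are not known.

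Recovered whole reads cover the plastid loci with a step and none of the leading loci, so their share is a measure of other loci than the FPKM share, and the sizes of the 2 shares cannot be compared. Plastid loci with a step had 45 to 2172 reads per library, out of 21069 to 1062260 recovered reads, or 0.00502% to 8.42%. Raphanus W library 1 had 373 plastid reads, 1.34% (95% Wilson interval 1.21% to 1.48%). Lobularia P library 2 had the highest read share of the 38 libraries, at 2172 reads, 8.42% (8.09% to 8.77%), against 1.31% in P library 1, 2.16% in W library 1 and 0.737% in W library 2. These intervals cover counting error only.

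In Erysimum, form Y library 1 had 1363 plastid reads or 0.226%, and the other 7 libraries lay between 0.0386% and 0.0643%, with P library 2 at 0.0439%. In the same Y library mitochondrial loci took 10.4% of FPKM, against 0.0179% to 0.503% in the other Erysimum libraries. In Lobularia P library 2 they took 17.5%, the highest value of that species. Whether the 2 organelle shares have a common source was not tested.

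The read share differed between the libraries of a form by a median of 1.48-fold, by 7.84-fold at most (Raphanus W), and by over 2-fold in 6 of 19 forms. The exact one-sided permutation test on read share gave p = 0.429 in Erysimum and p = 0.210 in Matthiola. The locus with the most plastid reads differed between libraries. ATCG00190 had the most reads in 7 of 8 Matthiola libraries, in all 4 of Orychophragmus (tied with 2 other loci in W library 2), in 5 of 8 of Erysimum and in both LP libraries of Malcolmia. In both P libraries of Malcolmia ATCG00480 had the most, and it also led in all 4 libraries of Iberis and all 4 of Lobularia. In Raphanus, ATCG00280 led in 3 of 6 libraries, ATCG00490 in both W libraries and ATCG00350 in DP library 2.

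**Figure D3:**
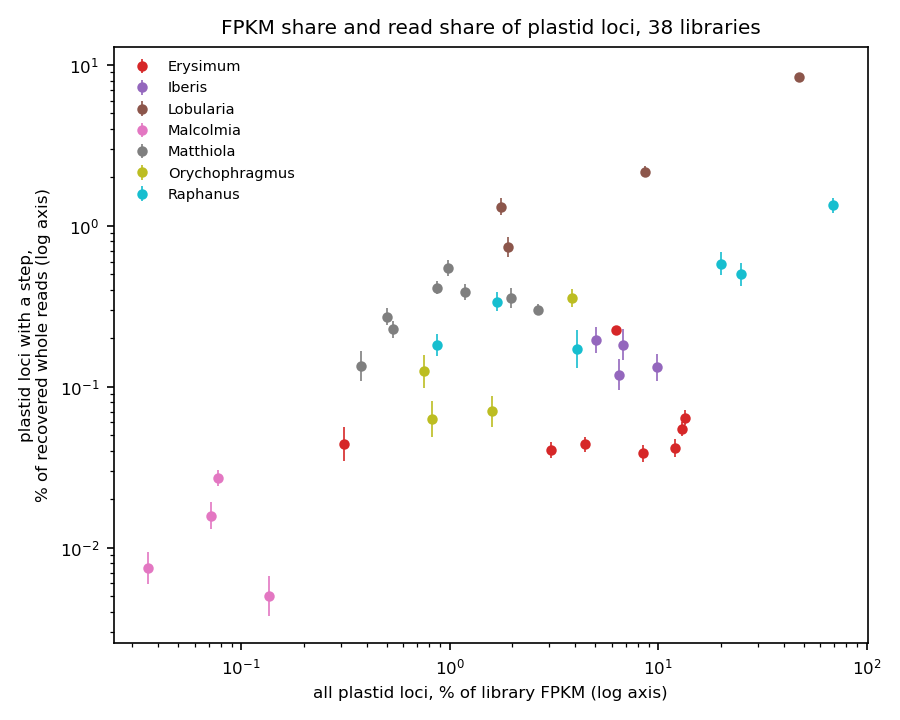
Share of recovered whole reads at plastid loci with a step (y axis) against the share of FPKM at all plastid loci (x axis), both in percent on log axes, for 38 libraries coloured by species, with 95% Wilson intervals on the read share. The axes cover different loci, so only the order of libraries along each can be read. Lobularia P2 is highest on the y axis, at 8.42%, and Raphanus W1 on the x axis, at 69.2%.

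Forms were compared locus by locus with limma on log2(FPKM + 1), fitted to the whole table of a species with Benjamini-Hochberg adjustment over all tested loci, and a locus was called at an adjusted p under 0.05. Between 47 and 69 plastid loci passed the filter of a mean of 1 FPKM in a form. Over 19 pairs of forms there were 30 plastid calls at 15 distinct loci, or 2.46% of 1221 plastid tests, against 2.15% of 247053 tests over all loci. In 24 of the 30 calls, 1 form was listed at 0 in both libraries, and such loci pass the filter only through the form in which they are high. Contrasts within a species share libraries and are not independent.

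Raphanus had calls in all 3 pairs. DP differed from LP at 2 of 64 plastid loci, where 8.0% of all loci were called, DP from W at 4 of 64 (10.8% of all loci) and LP from W at 2 of 64 (2.56%). All 8 calls were lower in the first form named. In the DP contrasts the median of all tested loci was itself shifted, by 0.72 on the log2 scale against LP and 0.86 against W, while the plastid medians were -0.53 and -1.84.

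ATCG00065 was listed at 0 in both DP libraries, at 175281 and 140875 FPKM in LP and at 114030 and 8315 FPKM in W. The locus passed the filter only through LP and W, so the lack of overlap with DP adds no support. The limma adjusted p for DP was 0.0178 against LP and 0.0137 against W. Both calls were kept in all 6 fits that leave out 1 library. ATCG00510 was listed at 57015 and 4157 FPKM in W and at 0 in LP and DP (adjusted p = 0.0160 for DP against W and 0.0482 for LP against W). The LP call was lost without either LP library or either DP library, at an adjusted p of up to 0.0924.

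The values of ATCG00065 and ATCG00510 stood in a ratio of 2.0 in both W libraries, so their calls in DP against W are not separate results. No other Raphanus library had ATCG00510 above 0. ATCG00630 was above 0 in all Raphanus libraries, at 2460 and 1800 FPKM in DP, 33860 and 39415 FPKM in LP and 13331 and 6667 FPKM in W. It was lower in DP than in LP by 4.12 on the log2 scale (log2 change -4.12, SE 0.37, limma adjusted p = 0.0205), and the groups did not overlap. That call was lost without LP library 2, at an adjusted p of 0.0549.

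Markers of other floral organs moved with the same contrasts. The pollen genes VGD1 and PPME1, both pectin methylesterases, had a summed level of 4595 and 4194 FPKM in W, 791 and 807 FPKM in LP and 78.6 and 142 FPKM in DP. Both fell in DP against W, and 1 of 2 in each other pair. AG and SHP1, listed as carpel markers, had sums of 45.3 and 28.6 FPKM in W and 27.3 and 10.9 FPKM in LP. Both were listed at 0 in DP, and in LP the sum was AG alone, with SHP1 listed at 0. Of the 5 petal identity genes 4 were called higher in DP than in W and 3 higher in DP than in LP. Of 26 nuclear photosynthesis genes 3 were higher in DP than in W, 2 were lower in DP than in LP and 1 was higher in LP than in W, and the median over all 26 was 2.38 on the log2 scale in DP against W and 1.34 in DP against LP, where those over all tested loci were 0.86 and 0.72. The part of these genes in the plastid differences was not tested.

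Orychophragmus P and W differed at 5 of 63 plastid loci, where 4.94% of all loci were called. Of these, 2 were higher in P and 3 were lower. ATCG00590 was listed at 4409 and 4083 FPKM in P and at 0 in W (limma adjusted p = 0.0101), and it was above 0 in no other species. ATCG00580 was listed at 146 and 133 FPKM in P and at 0 in W (adjusted p = 0.0242).

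In the other direction, ATCG00630 was listed at 0 in P and at 3693 and 6705 FPKM in W (adjusted p = 0.0107), and ATCG00330 at 0 in P and at 64.3 and 52.6 FPKM in W (adjusted p = 0.0278). The number of plastid calls changed with the library left out. It was not set beside the share of all loci called, so it is no result about plastid loci. The pollen sum was 713 and 634 FPKM in W and 30.3 and 0 FPKM in P, and its part was not tested. Of 5 petal identity genes PI fell in P (limma adjusted p = 0.0432, 1366 and 1929 FPKM against 4189 and 4370) and AP3 rose (adjusted p = 0.0319, 2023 and 1676 FPKM against 697 and 741). Of 22 nuclear photosynthesis genes tested 2 rose in P and 0 fell, with a median of 1.02 on the log2 scale against -0.15 for all tested loci. The plastid median was 1.82.

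Matthiola had calls in all 6 pairs of its 4 forms, at 65 tested plastid loci. There was 1 for DP against LP (0.229% of all loci called), 1 for DP against RB (0.840%), 3 for DP against W (2.66%), 2 for LP against RB (0.726%), 1 for LP against W (1.33%) and 5 for RB against W (7.10%). Of these 13 calls, 4 were at ATCG00630 and 4 at ATCG00730.

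ATCG00630 was listed at 1697 and 3203 FPKM in W and 3037 and 1275 FPKM in RB, and at 0 in all 4 libraries of LP and DP. It passed the filter only through W and RB, so its lack of overlap with LP and DP adds no support to the calls. The limma adjusted p was 4.48e-04 for DP against W and for LP against W, 5.30e-04 for DP against RB and 4.80e-04 for LP against RB. Both calls against RB were lost with a replicate block and when only the 2 compared forms were fitted. DP against W was called in all 8 fits without 1 library. DP against RB was lost without W library b or either LP library (adjusted p up to 0.0613), LP against RB without W library b (0.0564) and LP against W without DP library 2 (0.0508). ATCG00730 was listed at 63.7 and 89.6 FPKM in W and 46.1 and 33.9 FPKM in LP and at 0 in RB and DP. It passed the filter only through W and LP, and the same limit holds for it. Its call in RB against W (limma adjusted p = 0.00634) was kept in all 8 such fits but lost when only the 2 compared forms were fitted.

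Calls at loci with a step could be set beside reads. ATCG00190 was at 402 and 284 FPKM in RB (143 and 92 reads), 289 and 205 FPKM in DP (134 and 157 reads), 97.1 and 107 FPKM in LP (68 and 68 reads) and 52.8 and 81.3 FPKM in W (17 and 92 reads). RB and DP overlapped in FPKM, both lay above LP, and LP lay above W. It was higher in RB than in W by 2.35 on the log2 scale (SE 0.33, limma adjusted p = 0.00887) and higher in DP than in W by 1.88 (SE 0.33, adjusted p = 0.0333). The RB call was lost without RB library 1, at 0.0560, and the DP call in 7 of 8 fits without 1 library, at up to 0.117.

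ATCG00180 was at 165 and 106 FPKM in RB (36 and 21 reads) and at 5.07 and 20.1 FPKM in W (1 and 14 reads). It was higher in RB by 3.56 on the log2 scale (SE 0.61, adjusted p = 0.0176), a call lost in 6 of 8 fits without 1 library, with either LP, RB or DP library left out (up to 0.112). With limma voom on recovered reads, adjusted p was 8.16e-06 for ATCG00190 and 3.33e-04 for ATCG00180 in RB against W. In that fit 3 of 13 plastid loci were called, beside 19.5% of all loci.

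In Matthiola the summed level of 26 nuclear photosynthesis genes was 3112 and 2545 FPKM in W and 671 to 1166 FPKM in the 6 libraries of LP, RB and DP. Of 25 tested, 3 were lower in each of DP, LP and RB against W and none was higher. LHCA2, an antenna protein of photosystem I, was at 28.3 and 30.9 FPKM in RB against 369 and 272 in W (limma adjusted p = 0.0222). Of 19 nuclear genes of plastid transcription 15 were tested in Matthiola, and none of these was called.

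**Figure D4:**
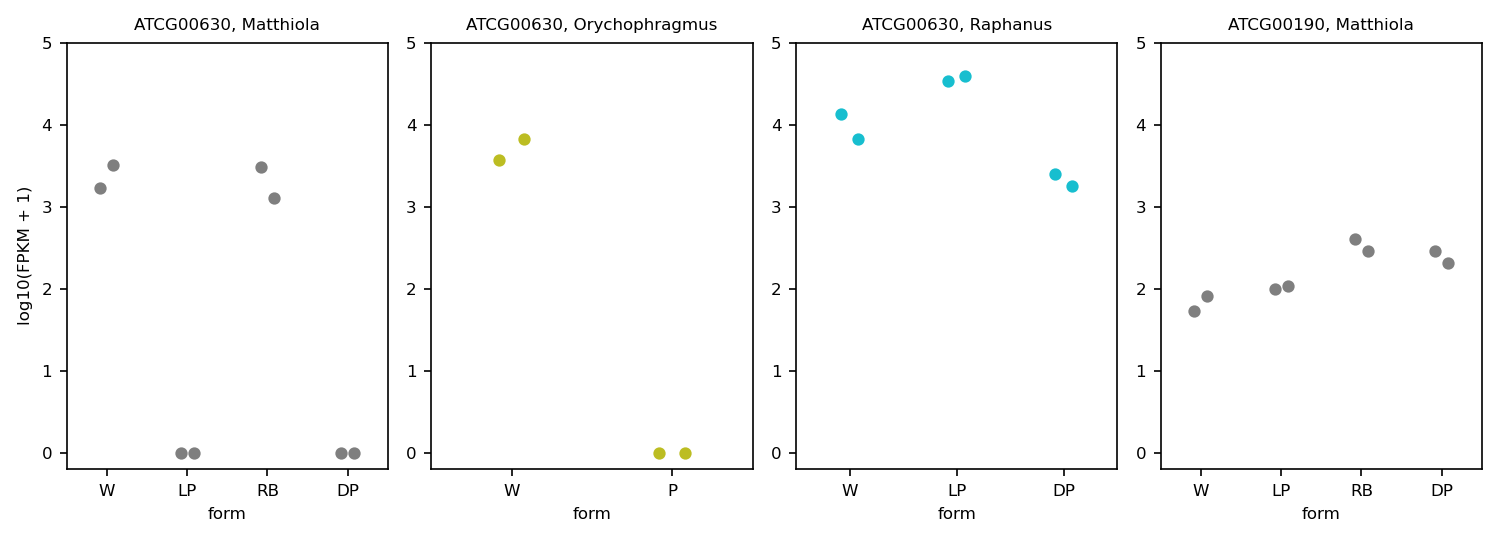
log10(FPKM + 1) of ATCG00630 in Matthiola, Orychophragmus and Raphanus and of ATCG00190 in Matthiola, with 1 point per library and forms along the x axis. ATCG00630 is listed at 0 in Matthiola LP and DP and in Orychophragmus P and is above 0 in every Raphanus library.

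Malcolmia LP and P differed at 1 of 47 plastid loci, where 4.09% of all loci were called. ATCG00140 was listed at 9.45 and 14.1 FPKM in LP and at 0 in P (limma adjusted p = 0.0460), a call lost in 3 of 4 fits without 1 library (up to 0.351). The number of plastid calls changed with the library left out, and it was not set beside the share of all loci called. The plastid median was 1.03 on the log2 scale, higher in LP, against 0.03 for all tested loci. Of 26 nuclear photosynthesis genes 7 were lower in LP and 0 higher, with sums of 7956 and 8289 FPKM against 20550 and 17475 FPKM in P. Of 17 tested nuclear genes of plastid transcription 3 were higher in LP, among them FSD2, an iron superoxide dismutase of plastid nucleoids, at 14.5 and 15.5 FPKM against 0 and 0.809 (adjusted p = 0.0460).

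In Erysimum 69 plastid loci were tested and 1 was called in each pair with form Y, beside 0.0203%, 0.0203% and 0.0270% of all loci for B, O and P against Y. It was ATCG00080, listed at 11342 and 1837 FPKM in Y and at 0 in the 6 other libraries (limma adjusted p = 0.0115 for B and O and 0.0230 for P). Each call was lost in 6 of 8 fits without 1 library, at an adjusted p of up to 0.656. The pairs B against O, B against P and O against P had no plastid call, beside 0.0135%, 0.00676% and 0.0135% of all loci called. An unadjusted limma p under 0.05 was reached by 0, 3 and 1 of 69 plastid loci. Over all loci it was reached by 404, 1494 and 1035 of 14788. Limma voom on recovered reads called 0 of 24 plastid loci and 0% of all loci in each Erysimum pair.

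Iberis and Lobularia had no plastid call. In Iberis P against PI, limma called 0 of 47 plastid loci and 0 of all loci (0%). An unadjusted limma p under 0.05 was reached by 12 of 47 plastid loci, beside 580 of 10555 over all loci. Voom on recovered reads called 0 of 11 (0.0667% of all loci). In Lobularia P against W, limma called 0 of 68 plastid loci and 0 of all loci (0%). There, 2 of 68 plastid loci had an unadjusted limma p under 0.05, beside 374 of 8801 over all loci, and voom called 0 of 18. With 1 library left out, some fits of both species had plastid calls. Their number was not set beside the share of all loci called, so it is no result about plastid loci. The plastid medians were 0.90 (higher in P) and 1.62 (higher in P) on the log2 scale, against -0.12 and -0.05 for all tested loci.

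Over the other pairs, limma voom on recovered reads tested only loci with a step, 12 to 18 plastid loci per pair. It called 2 of 12 for Malcolmia LP against P (20.7% of all loci), both higher in LP. In Matthiola it called 1 of 13 for DP against LP (2.86%), 0 for DP against RB (2.43%), 5 for DP against W (19.3%), 3 for LP against RB (1.25%) and 1 for LP against W (15.5%).

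For Orychophragmus P against W it called 6 of 14 (32.9%), all higher in P, and none of these 6 was called on FPKM. Among them ATCG00190 had 44 and 14 reads in P against 14 and 10 in W (voom adjusted p = 0.0117), so that the forms met at 14 reads before scaling to 58408 and 55251 recovered reads in P and 92016 and 110883 in W. In Raphanus it called 3 of 18 for DP against LP (26.9%), 3 for DP against W (34.6%), all lower in DP, and 0 for LP against W (6.77%). ATCG00490 had 15 and 8 reads in DP, 25 and 25 in LP and 56 and 18 in W (voom adjusted p = 0.0167 against LP and 0.00990 against W). It was called in neither pair on FPKM, nor with the other pseudocount, filter, scalings, block or choice of forms tried on FPKM.

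Levels of nuclear genes that act on plastid RNA were summed per library. The 4 genes of plastid RNA decay (PNP, RNJ, RNR1 and RNE) summed to 83.7 FPKM at most, in Eruca. In the tests, 4 passed the filter in Erysimum and Malcolmia, 3 in Matthiola, Orychophragmus and Raphanus, 2 in Iberis and 1 in Lobularia, and none of those tested was called. The 19 genes of plastid transcription summed to between 28.8 FPKM in Aubrieta and 592 FPKM in Erysimum. Outside Malcolmia they had calls in 3 pairs. RPOTP, the plastid phage-type RNA polymerase, was at 2.71 and 2.94 FPKM in Orychophragmus P against 74.1 and 63.6 in W (adjusted p = 0.0317). SIG5, a sigma factor of the plastid-encoded polymerase, was at 48.5 and 54.4 FPKM in Raphanus DP and listed at 0 in LP and W (adjusted p = 0.0238 and 0.0173).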

How the data were processed

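Poly(A)-selected directional RNA-seq libraries of petals were used as the authors' deposited FPKM, 1 value per locus and library. Per the submitters' processing notes, TopHat, DESeq, Cufflinks and Cuffdiff were named without versions, and per the series text Arabidopsis was the reference. The full depth is unknown. From the deposited FPKM, shares of summed FPKM were computed, and log2(FPKM + 1) was modelled with limma 3.58.1 in R 4.3.3, with all forms of a species in 1 fit, a trended empirical Bayes variance and loci of a mean of at least 1 FPKM in a form. Whole reads were recovered from value steps with a tolerance of 0.1 in at least 6 libraries. Both scripts were tested on simulated data. The series describes replicates as biological, with 2 per form. All table columns were mapped (0 left over). Named loci lead a species or library, are above 0 everywhere, differ most between replicates or are called, with at most 2 per direction and pair by lowest adjusted p. The plastid loci were taken by their prefix alone. The gene lists and their members were chosen with earlier results of these data known.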

Additional observations from a re-analysis of the deposited data

How the results depend on the processing

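No called plastid locus reversed its direction under any alternative run, and 4 of 30 calls held under every alternative available for them. A replicate block was available for 21 of the 30 calls and voom on recovered reads for 4. The calls that held had no voom result, and in each 1 form was listed at 0 in both libraries. Counts and shares from recovered reads, Erysimum without form P, and shares without 1 library were chosen after seeing the data. Length-based shares were not run because no locus lengths were used. Plastid calls per pair went to 0 with a pseudocount of 0.1 in Malcolmia and Matthiola DP against LP, to 2 in LP against W and to 3 in RB against W. With no filter on low FPKM they were 0 in Malcolmia and in Raphanus LP against W. Quantile scaling gave 0 in Malcolmia and Matthiola DP against LP and 1 in Raphanus LP against W. Scaling to nuclear loci gave 1 in Iberis, 6 in Malcolmia, 0 in Matthiola DP against LP, 8 in DP against W and 4 in LP against W. Fitting only the 2 compared forms gave 0 in Erysimum O and P against Y, in Matthiola DP against LP, DP against RB, LP against RB and RB against W and in Raphanus LP against W, 5 in Matthiola DP against W and 4 in Raphanus DP against LP. Voom on recovered reads gave 0 in Erysimum B, O and P against Y, in Matthiola DP against RB and in Raphanus LP against W, 2 in Malcolmia, 5 in Matthiola DP against W and 3 in RB against W. The cause was not tested, except that voom tested fewer loci. Same-numbered libraries deviated together with r from -0.047 to 0.374 over 16 pairs of forms. The highest r was between Erysimum O and Y, and the next was 0.099, between Erysimum P and Y. Whether the replicate numbers mark paired samples is not known. With a replicate block the counts were 10 in Iberis, 2 in Malcolmia, 0 in Matthiola DP against LP, DP against RB and LP against RB, 21 in Orychophragmus, and 1, 2 and 0 in Raphanus DP against LP, DP against W and LP against W. No block could be fitted for Matthiola W, whose columns carry no replicate numbers. Leaving out 1 library at a time gave 0 to 5 calls in Erysimum B against P and O against P, 0 to 4 in B against Y and O against Y, 0 to 6 in P against Y, 0 to 3 in Iberis, 0 to 4 in Lobularia and 0 to 11 in Malcolmia. It gave 0 to 4 in Matthiola DP against LP and DP against RB, 1 to 9 in DP against W, 0 to 5 in LP against RB, 0 to 6 in LP against W, 2 to 9 in RB against W, 0 to 23 in Orychophragmus, and 2 to 5, 2 to 12 and 0 to 8 in Raphanus DP against LP, DP against W and LP against W. Such fits take the lone library of a form to vary like the others. The counts of plastid calls under every alternative above, apart from voom, stand without the share of all loci called. They cannot be read as results about plastid loci, whether they rose or fell. The median plastid share without the highest locus of each library was 0.306% in Aubrieta, 5.89% in Eruca, 0.166% in Erysimum, 2.15% in Iberis and 0.0300% in Malcolmia. Without mitochondrial loci in the total it was 1.61% in Aubrieta and 9.16% in Eruca. Over loci above 0 in every library of a species it was 5.83% in Eruca, 0.0358% in Erysimum, 4.78% in Iberis, 0.0180% in Malcolmia and 0.166% in Matthiola. As a share of recovered reads, which cover only loci with a step, it was 0.0439% in Erysimum, 0.158% in Iberis and 0.0116% in Malcolmia. Loci with a step can rest on 1 read, and depth behind the leading loci is unknown.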
